A study of Mus musculus with 10 samples.

Results

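Glycogen, the branched glucose store of muscle, was followed through the messenger RNAs of 9 genes that build it, break it down or steer the enzymes that do. The 9 genes were named by symbol and their rows taken from the gene tables, where all 9 were found among 18025 genes and all 9 passed the filter on low counts that 12697 genes passed. They are Gyg, Ugp2, Gys1 and Gbe1 on the side of synthesis, Pygm and Phkg1 on the side of breakdown, and Ppp1r3a, Ppp1r3c and Ppp1r3d, which bring a phosphatase to glycogen. The samples were gastrocnemius, a calf muscle made mostly of fast fibres, with 5 labelled COPD (chronic obstructive pulmonary disease) and 5 labelled control. All carried the labels C57BL/6, wild type and 8 weeks of age, and the disease was modelled by cigarette smoke, per the title of the series. The labels give no duration of smoke exposure, sex, hour of collection or feeding state, and nothing in them ties a sample to an animal, so the p-values below reflect sample-to-sample spread that may in part be technical.

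Synthesis starts on glycogenin, a protein that attaches the first glucose units to itself. Glycogen synthase lengthens the chains with glucose from UDP-glucose, and the branching enzyme creates the branches. Glycogen phosphorylase shortens the chains again during contraction, when phosphorylase kinase, driven by calcium and adrenaline, has switched it on. Protein phosphatase 1, held on the glycogen particle by targeting subunits, removes the phosphate groups, which activates the synthase and silences phosphorylase and its kinase.

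Library totals ran from 14085854 to 17163590 expected counts in COPD and from 15637218 to 17251034 in control. Several libraries stood apart before any glycogen gene was considered. COPD replicate 5 lay at -21.9 on the leading principal component of log2 CPM (read counts scaled to a common library total, here after TMM scaling), inside the control range of -23.9 to -10.04, while COPD replicates 1 to 4 lay between 11.4 and 38.0. Transcripts of 3 Y-linked genes summed to 4, 3 and 3 counts in COPD replicates 1, 4 and 5, against 1118 or more in the 7 other libraries. Every library with so few Y-linked counts was COPD and none was control. Y-linked counts, and sex where they reflect it, were thus partly aligned with group. The main comparison below had no term for them, so disease and sex cannot be fully told apart in it. The muscle label fitted its markers: the 9 fast-muscle and general muscle markers summed to 219309 to 252412 TPM, a level that takes transcript length into account, in COPD and to 177765 to 260256 TPM in control, with the lowest sum in control replicate 4. Slow-fibre markers summed to 101 to 454 TPM in COPD and to 193 to 1362 TPM in control, and all 8 had a log2 fold change below 0 with 0 called. The highest sums were those of control replicates 1 and 4, at 1362 and 942 TPM. Control replicates 2, 3 and 5, at 202, 193 and 252 TPM, lay within the COPD range. The medians of the sums were 173.5 TPM in COPD and 252 TPM in control. The part of fibre mix in the results that follow was not tested. In whole muscle, fewer cells of a type and less RNA per cell cannot be told apart.

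COPD was compared with control over all 12697 genes by edgeR's quasi-likelihood test, calling a gene at a Benjamini-Hochberg adjusted p under 0.05. Of the 9 glycogen genes, 0 passed in either direction, where 0.0551% of all tested genes were called higher and 0.00788% were called lower in COPD. Before adjustment, a p under 0.05 was reached by 3 that were higher (Ppp1r3c, Phkg1 and Pygm) and 1 that was lower (Gyg), beside 7.94% and 6.64% of all tested genes in those directions. The COPD and control libraries did not overlap for Ppp1r3c, which lay above control, and for Gyg, which lay below it; among all tested genes 1.29% lay wholly above and 1.55% wholly below. The log2 fold changes had a median of -0.085, with 4 above 0 and 5 below, beside a median of -0.012 over all tested genes.

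Of 22 alternative fits, 4 called Ppp1r3c and 18 did not, while 3 called Gyg and 19 did not. The fits that called either gene follow. DESeq2, which called 1.47% of all genes higher and 0.843% lower, called Ppp1r3c higher and Gyg lower. Voom with sample weights called 0.677% of genes higher, Ppp1r3c among them, and 0.402% lower. Without COPD replicate 5, edgeR called 2.06% of genes higher, Ppp1r3c among them, and 1.15% lower. Over the libraries with Y-linked counts alone it called 2.55% higher, again with Ppp1r3c, and 1.15% lower. Limma on log2(TPM + 1) called 0.0804% of genes higher and 0.518% lower, Gyg among the lower, and on log2(TPM + 0.1) it called 0.0804% and 0.5%, again with Gyg. The other 7 genes were called by none of these fits.

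**Figure D1:**
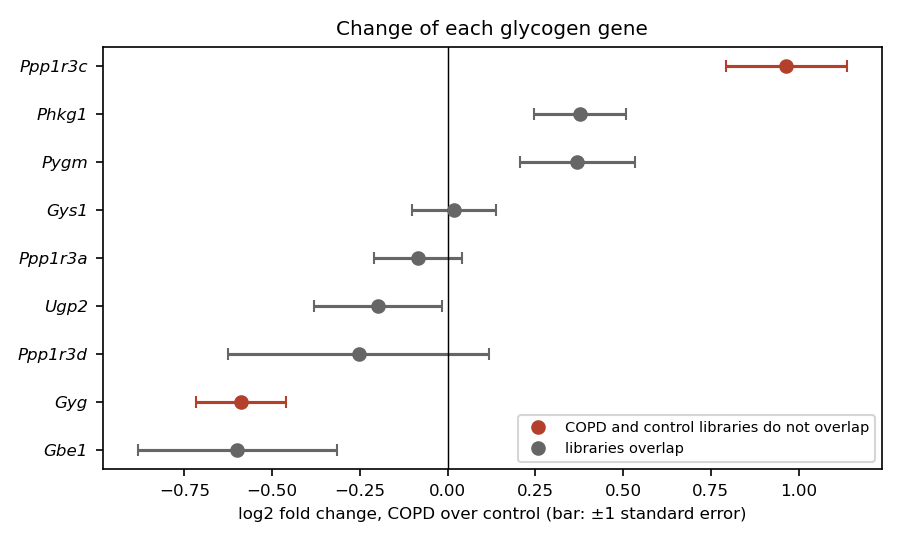
Log2 fold change of each glycogen gene, COPD over control, with bars of 1 standard error. Ppp1r3c stands at the right end with 0.96, Gyg and Gbe1 at the left end with -0.59 and -0.60, and Gys1 at 0.018.

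Levels per transcript length spread over a wide range. Pygm averaged 6442 ± 457 TPM in COPD and 5728 ± 1057 TPM in control (SD, n = 5 each) and held rank 17 among all 18025 genes in both groups. In COPD the order below it was Ppp1r3c (515 ± 92.7 TPM), Gyg (336 ± 18.3), Ugp2 (326 ± 61.2), Phkg1 (301 ± 16.3), Gys1 (236 ± 43.4), Ppp1r3a (46.3 ± 8.83), Gbe1 (22.04 ± 8.24) and Ppp1r3d (0.894 ± 0.484; SD, n = 5 each). In control Gyg came second (589 ± 124 TPM), before Ugp2 (432 ± 132), Ppp1r3c (303 ± 67.5), Gys1 (268 ± 40.5) and Phkg1 (268 ± 38.8), and then Ppp1r3a (56.6 ± 10.3), Gbe1 (38.4 ± 17.5) and Ppp1r3d (1.26 ± 0.436; SD, n = 5 each). In COPD each neighbour from Gyg down to Gys1 overlapped with the next in its range over libraries, and in control each from Gyg down to Phkg1 did, as did Ppp1r3a and Gbe1.

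**Figure D2:**
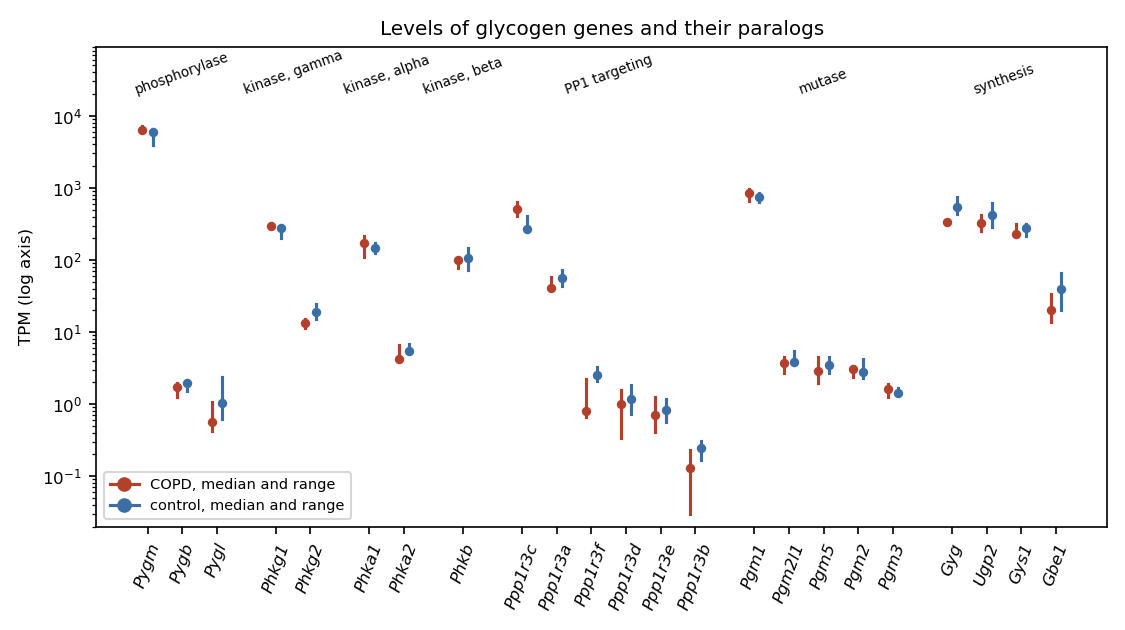
TPM of glycogen genes and their paralogs on a log axis, with the median (point) and range (line) of the 5 COPD and 5 control libraries. Pygm lies at 3882 TPM or more in every library, while its paralogs Pygb and Pygl reach at most 2.18 and 2.39 TPM.

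The targeting subunits of protein phosphatase 1 parted from each other. Ppp1r3c encodes the subunit also called protein targeting to glycogen, which scaffolds the phosphatase with glycogen synthase and phosphorylase. It had 748, 1034, 776, 1055 and 836 TMM-scaled CPM in COPD replicates 1 to 5 and 394, 357, 580.02, 376 and 572 CPM in control replicates 1 to 5. Every COPD library lay above every control library, and COPD replicate 5 sat among the other COPD libraries. The mean was 890 ± 145 CPM in COPD and 456 ± 110 CPM in control (SD, n = 5 each), a 1.95-fold difference (log2 fold change 0.96 ± 0.17 SE, unadjusted p = 0.000107, adjusted p = 0.0611 by edgeR), which did not pass. It ranked 21 by p among the 12697 tested genes. The difference passed without COPD replicate 5 (log2 fold change 0.99 ± 0.19, adjusted p = 0.0201 by edgeR). The libraries with Y-linked counts leave out COPD replicates 1, 4 and 5, so a fit on them alone is not separate from the fit before. There, with 2 COPD libraries against 5 control, the difference passed (1.00 ± 0.22, adjusted p = 0.0437 by edgeR). With a term for Y-linked counts over all 10 libraries it did not pass (0.99 ± 0.22, adjusted p = 0.0509 by edgeR). Nor did it pass without any single library other than COPD replicate 5 (adjusted p between 0.0775 and 0.152 by edgeR). In TPM the groups met almost edge to edge, at 403 TPM in COPD replicate 1 and 402 TPM in control replicate 5.

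Ppp1r3a encodes the large targeting subunit of striated muscle, which anchors the phosphatase to glycogen and the sarcoplasmic reticulum. It had 204, 189.8, 187, 233 and 259 CPM in COPD replicates 1 to 5 and 234, 224, 198, 206 and 275 CPM in control replicates 1 to 5. The groups overlapped almost fully (log2 fold change -0.085 ± 0.13, adjusted p = 0.805 by edgeR). Within a library, where scaling cancels, the TPM of Ppp1r3c was 8.70 to 14.7 times that of Ppp1r3a in COPD and 4.29 to 7.88 times in control. These ratios did not overlap, with means of 11.3 ± 2.29 in COPD and 5.45 ± 1.45 in control (SD, n = 5 each). Ppp1r3c separated the groups on its own, so its ratio to Ppp1r3a restates that difference and adds no separate support.

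Ppp1r3d, a further targeting subunit, was barely detected. Its expected counts were 48.7, 15.95, 9.74, 30.5 and 32.2 in COPD replicates 1 to 5 and 48.4, 35.55, 31.9, 23.4 and 58.2 in control replicates 1 to 5. The groups overlapped, with COPD replicate 1 the highest and COPD replicate 3 the lowest of the COPD libraries (log2 fold change -0.25 ± 0.37 SE, adjusted p = 0.802 by edgeR). The value moved with the libraries used. It was -0.60 without COPD replicate 1, -0.12 without COPD replicate 2 and -0.040 without COPD replicate 3, and -0.41 and -0.10 without control replicates 4 and 5. It was -1.25 with a term for Y-linked counts (unadjusted p = 0.0133, adjusted p = 0.162) and -1.24 when only libraries with Y-linked counts were used (unadjusted p = 0.014, adjusted p = 0.136, all by edgeR), and passed in none of these fits. Of the other targeting subunits, Ppp1r3f had 1.70, 1.92, 1.47, 2.58 and 4.78 CPM in COPD replicates 1 to 5 and 6.32, 4.02, 5.25, 4.83 and 5.14 CPM in control replicates 1 to 5. COPD replicates 1 to 4 lay below all controls and COPD replicate 5 among them (log2 fold change -1.02 ± 0.29, adjusted p = 0.144 by edgeR). Without COPD replicate 5 the difference passed (-1.41 ± 0.21, adjusted p = 0.00729 by edgeR). Ppp1r3e was at 0.746 ± 0.364 TPM in COPD and 0.826 ± 0.222 TPM in control (SD, n = 5 each), and Ppp1r3b, the main subunit of liver, and Ppp1r3g did not pass the low-count filter.

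**Figure D3:**
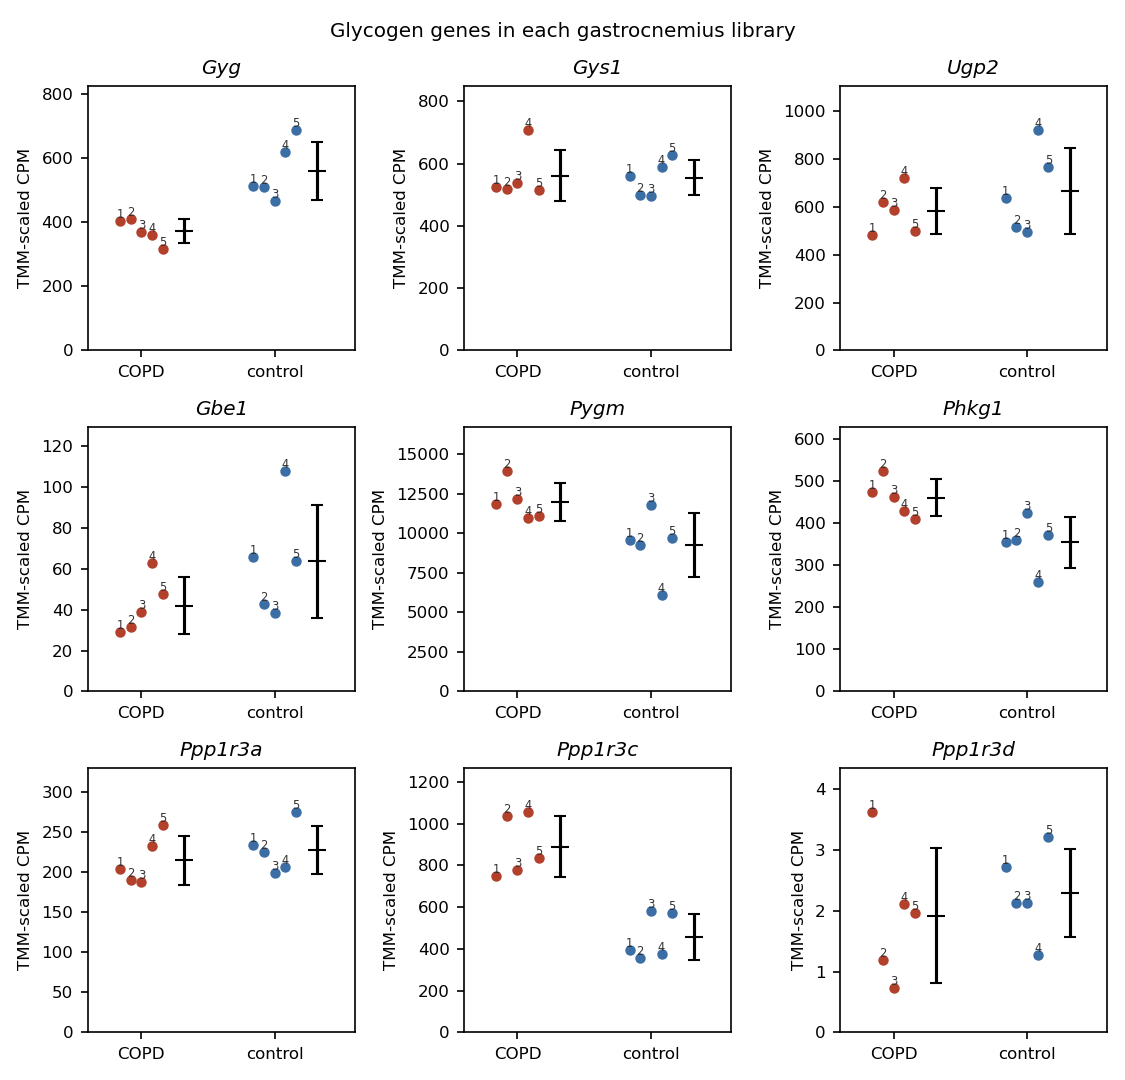
TMM-scaled CPM of the 9 glycogen genes in each library, numbered by replicate, with mean and SD beside each group. All 5 COPD libraries are above all 5 control libraries for Ppp1r3c and below them for Gyg; the other 7 panels overlap.

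The stretches before the start sites of the genes without overlap between the groups are shown because these are the members whose libraries separated. They are the 250 bases before the RefSeq start of Ppp1r3c (GRCm38.p6, chr19:36736605-36736854, minus strand) and of Gyg (GRCm38.p6, chr3:20155117-20155366, minus strand), 5′ to 3′. Capitals mark matches, on either strand, to any of 9 short motifs that were searched. These were the E-box CACGTG, the hypoxia core ACGTG, the MyoD-type E-box CAGCTG, the cAMP response element TGACGTCA, the D-box TTANGTAA, the glucocorticoid element part AGAACA, the Sp1 box GGGCGG, the TATA box TATAAA and the CCAAT box.
Ppp1r3c: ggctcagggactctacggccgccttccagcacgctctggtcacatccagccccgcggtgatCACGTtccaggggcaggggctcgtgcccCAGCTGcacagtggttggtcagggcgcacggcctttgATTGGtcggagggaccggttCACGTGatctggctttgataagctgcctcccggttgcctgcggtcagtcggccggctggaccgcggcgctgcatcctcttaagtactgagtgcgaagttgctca
Gyg: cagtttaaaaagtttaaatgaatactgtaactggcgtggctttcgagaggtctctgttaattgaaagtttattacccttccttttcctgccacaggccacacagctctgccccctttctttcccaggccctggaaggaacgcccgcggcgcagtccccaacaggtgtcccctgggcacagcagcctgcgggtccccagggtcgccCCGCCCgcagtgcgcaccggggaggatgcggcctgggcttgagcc
The Ppp1r3c stretch holds the E-box CACGTG, bound by clock, USF and Myc-type factors, 104 bases before the start. CACGTG was in 6.02% of 32851 promoter windows of the same length and, among the 9 genes, also before Ppp1r3d. It contains ACGTG, the core of the hypoxia response element, on each strand; a further ACGTG lies 189 bases before the start, and 16.6% of windows held that core. The same stretch has a CAGCTG, the E-box form bound by MyoD (13.0% of windows), and a CCAAT box (33.8%). In the Gyg stretch the match was the Sp1 box GGGCGG, 45 bases before the start and found in 32.7% of windows. The matches describe the letters of these windows and nothing else.

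On the side of synthesis, Gyg encodes glycogenin, the primer of the glycogen particle. It had 403, 409, 369.5, 359 and 317 CPM in COPD replicates 1 to 5 and 513, 509, 466, 618 and 687 CPM in control replicates 1 to 5. Every COPD library lay below every control library, with COPD replicate 5 the lowest of the 10. The mean was 372 ± 37.4 CPM in COPD and 558 ± 91.01 CPM in control (SD, n = 5 each), a ratio of 0.665 (log2 fold change -0.59 ± 0.13 SE, unadjusted p = 0.000573, adjusted p = 0.0887 by edgeR), which did not pass. Among the libraries with Y-linked counts alone the log2 fold change was -0.51 (adjusted p = 0.150 by edgeR). By limma on log2(TPM + 1) it was -0.78 (adjusted p = 0.0443), beside a median of -0.18 over all genes on that scale.

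Gys1 encodes the muscle glycogen synthase, which works on the primer that glycogenin provides. It had 526, 519.9, 538, 708 and 515 CPM in COPD replicates 1 to 5 and 559, 501, 497, 589 and 626 CPM in control replicates 1 to 5. The groups overlapped, and COPD replicate 4 stood above all other libraries (log2 fold change 0.018 ± 0.12, adjusted p = 0.961 by edgeR). The sign of this small value turned with the scaling. Per library, the TPM of Gyg divided by that of Gys1 was 1.67, 1.71, 1.49, 1.10 and 1.34 in COPD replicates 1 to 5 and 1.99, 2.21, 2.04, 2.28 and 2.38 in control replicates 1 to 5. Every COPD library thus held less glycogenin transcript per synthase transcript than any control library, with means of 1.46 ± 0.250 in COPD and 2.18 ± 0.164 in control (SD, n = 5 each). The ratio of Ppp1r3c to Gys1 did not overlap either, at 2.203 ± 0.325 in COPD and 1.14 ± 0.298 in control (SD, n = 5 each). Gyg and Ppp1r3c separated the groups on their own, so their ratios to Gys1 restate those differences. The ratios of Pygm to Gys1 and of Gbe1 to Gys1 overlapped.

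Ugp2 encodes the enzyme that makes UDP-glucose, the glucose donor of the synthase. It had 482, 621, 587, 719 and 499 CPM in COPD replicates 1 to 5 and 637, 514, 497, 921 and 768 CPM in control replicates 1 to 5, with much overlap (log2 fold change -0.20 ± 0.18, adjusted p = 0.664 by edgeR). Gbe1 encodes the branching enzyme. It had 29.0, 31.7, 39.0, 62.9 and 47.7 CPM in COPD replicates 1 to 5 and 65.9, 42.7, 38.3, 108 and 63.9 CPM in control replicates 1 to 5. Its log2 fold change of -0.60 ± 0.28 was as large as that of Gyg, but its libraries overlapped and it did not pass (adjusted p = 0.353 by edgeR). Control replicate 4 held the highest value of both genes. Without it, the log2 fold change was -0.33 for Gbe1 (adjusted p = 0.599) and -0.055 for Ugp2 (adjusted p = 0.914, both by edgeR).

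**Figure D4:**
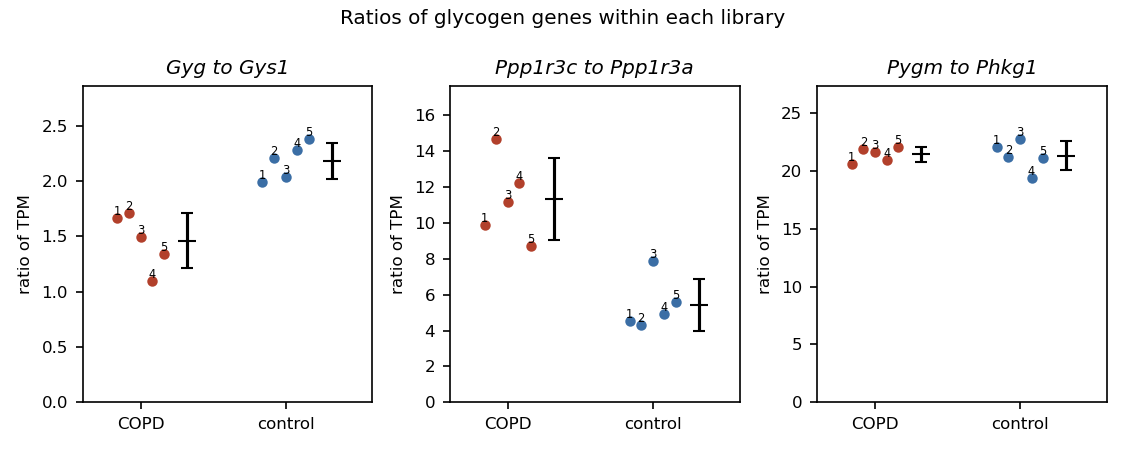
Ratio of the TPM of paired genes within each library, numbered by replicate, with mean and SD beside each group. Gyg to Gys1 is lower and Ppp1r3c to Ppp1r3a higher in all 5 COPD libraries than in any control library, while Pygm to Phkg1 stays between 19.4 and 22.7 in all 10.

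On the side of breakdown, Pygm encodes the muscle glycogen phosphorylase, the enzyme missing in McArdle disease. It had 11844, 13936, 12159, 10939 and 11089.8 CPM in COPD replicates 1 to 5 and 9557, 9261, 11763, 6125 and 9699 CPM in control replicates 1 to 5. Control replicate 3 lay among the COPD libraries and control replicate 4 far below all others (log2 fold change 0.37 ± 0.16, adjusted p = 0.319 by edgeR). Phkg1 encodes the catalytic subunit of muscle phosphorylase kinase, the enzyme that switches phosphorylase on. It had 473, 523, 462, 427 and 410.2 CPM in COPD replicates 1 to 5 and 354, 359, 423, 259 and 371 CPM in control replicates 1 to 5. COPD replicate 5 lay below control replicate 3, and the remaining 4 COPD libraries lay above all controls (log2 fold change 0.38 ± 0.13, adjusted p = 0.226 by edgeR). Without control replicate 4, which also had the lowest sum of muscle markers, the log2 fold changes were 0.25 for Pygm (adjusted p = 0.424) and 0.28 for Phkg1 (adjusted p = 0.306, both by edgeR).

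The phosphorylase and its kinase followed each other closely from library to library. Among 9215 other genes with a mean of at least 5 CPM, the gene with the highest Pearson's r to Pygm in log2 CPM over the 10 libraries was Phkg1, at r = 0.985 (Spearman's rho = 0.939). After Phkg1 came the kinase gene Mast4 (r = 0.97) and the pyruvate kinase gene Pkm (r = 0.953). Without COPD replicate 2 and control replicate 4 the r of Mast4 and Pkm was 0.863 and 0.878. Within COPD alone it was 0.854 and 0.554, and within control alone 0.982 and 0.969. The likeness of Pygm and Phkg1 was also seen after each group was centred on its own mean (r = 0.983) and without COPD replicate 2 and control replicate 4, the libraries farthest from the median of Pygm (r = 0.953). These values describe pairs picked as the highest of many, across libraries that share their scaling and their fibre content, and have no p. The ratio of Pygm to Phkg1 in TPM averaged 21.4 ± 0.629 in COPD and 21.3 ± 1.27 in control (SD, n = 5 each), with a coefficient of variation of 4.44% over the 10 libraries. Lrrc2 (r = 0.89) and Wipi1 (r = 0.879) were among the 3 genes nearest to Gys1. Without COPD replicate 4 and control replicate 5 their r was 0.754 and 0.656, so that they rest in part on those libraries.

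The 250 bases before the starts of this closely matched pair are shown for that reason, with capitals for the same motifs, from Pygm (GRCm38.p6, chr19:6384158-6384407, plus strand) and Phkg1 (GRCm38.p6, chr5:129879089-129879338, minus strand), 5′ to 3′.
Pygm: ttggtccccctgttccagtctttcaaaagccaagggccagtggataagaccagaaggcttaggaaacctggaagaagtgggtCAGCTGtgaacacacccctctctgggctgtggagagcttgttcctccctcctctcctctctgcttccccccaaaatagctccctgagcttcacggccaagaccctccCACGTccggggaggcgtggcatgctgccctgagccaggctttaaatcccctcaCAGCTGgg
Phkg1: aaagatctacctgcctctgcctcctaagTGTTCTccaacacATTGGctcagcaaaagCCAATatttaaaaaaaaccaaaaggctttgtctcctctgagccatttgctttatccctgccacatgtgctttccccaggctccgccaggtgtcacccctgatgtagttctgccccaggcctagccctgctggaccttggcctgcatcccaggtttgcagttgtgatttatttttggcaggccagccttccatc
The Pygm stretch holds the MyoD-type E-box CAGCTG 8 and 168 bases before the start and ACGTG at 61 bases. The Phkg1 stretch holds CCAAT at 193 and 209 bases and AGAACA, a part of the glucocorticoid response element that 16.1% of windows held, at 222 bases. The pair shared none of the 9 motifs in these windows.

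Muscle forms dominated each enzyme over their paralogs. The brain phosphorylase gene Pygb was at 1.72 ± 0.290 TPM in COPD and 1.88 ± 0.268 TPM in control, and the liver phosphorylase gene Pygl at 0.626 ± 0.262 and 1.24 ± 0.687 TPM in COPD and in control (SD, n = 5 each). Pygb is similar in sequence to Pygm, and its counts were not whole, so a share of them may be assigned from Pygm reads. The liver synthase gene Gys2 had at most 3 counts in a COPD library and 6 in a control library. The liver and testis kinase subunit gene Phkg2 was at 13.5 ± 1.41 TPM in COPD and 18.8 ± 3.45 TPM in control (SD, n = 5 each), far below Phkg1. Pgm1, a phosphoglucomutase gene that links glucose phosphates to glycogen, was the most abundant of 5 Pgm genes at 837 ± 112 TPM in COPD and 759 ± 89.0 TPM in control (SD, n = 5 each), and the other 4 reached at most 5.53 TPM in any library.

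Beyond the 9 genes, 44 further genes of glycogen metabolism and its control were listed, of which 41 were tested. By edgeR 0 were called and their log2 fold changes had a median of 0.026. Before adjustment, 9 had a p under 0.05, of which 4 were higher and 5 lower in COPD, beside the 7.94% and 6.64% of all tested genes given above; as shares of the 41 these are 9.76% and 12.2%. Prkag2, a regulatory subunit of the energy sensor AMPK that binds adenine nucleotides, had 9.23, 13.9, 12.9, 15.9 and 11.8 CPM in COPD replicates 1 to 5 and 6.998, 7.81, 8.71, 5.71 and 7.02 CPM in control replicates 1 to 5. The groups did not overlap in CPM, though they did in TPM (log2 fold change 0.82 ± 0.16, adjusted p = 0.0757 by edgeR), and without COPD replicate 5 the difference passed (0.85 ± 0.17, adjusted p = 0.0273 by edgeR). Prkaa2, the catalytic AMPK subunit typical of muscle, had 149, 166, 158, 164 and 155 CPM in COPD replicates 1 to 5 and 174, 234, 184, 186 and 213 CPM in control replicates 1 to 5. Its groups did not overlap either, in the other direction, and it did not pass (log2 fold change -0.32 ± 0.10, adjusted p = 0.189 by edgeR). Pgm3, a mutase of amino sugars, was the remaining listed gene without overlap in CPM. It was at 4.47 ± 0.489 CPM in COPD and 3.70 ± 0.272 CPM in control (SD, n = 5 each, adjusted p = 0.379 by edgeR). In TPM its groups overlapped, at 1.25 to 1.92 in COPD and 1.34 to 1.66 in control. In all, 3 of the 41 did not overlap in CPM, against 2.84% of all tested genes.

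The other subunits of phosphorylase kinase did not share one direction. Phka1, the muscle regulatory subunit, had a log2 fold change of 0.38 ± 0.16 (adjusted p = 0.308), Phkb one of 0.0089 ± 0.16 (adjusted p = 0.987) and Phkg2 one of -0.28 ± 0.13 (adjusted p = 0.340, all by edgeR). Pgm1 was at 0.35 ± 0.15 (adjusted p = 0.320 by edgeR). The phosphatase inhibitor genes Ppp1r1a and Ppp1r2 had log2 fold changes of -0.80 ± 0.31 (adjusted p = 0.262) and -0.24 ± 0.10 (adjusted p = 0.274, both by edgeR). For Ppp1r1a, control replicate 4 stood highest at 273 CPM, against 99.9 to 161 CPM in the other controls. The COPD libraries, at 50.6 to 123 CPM, overlapped with control.

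Markers of other cells were set beside these values, since glycogen genes are also used outside muscle fibres. The macrophage markers summed to 43.5 to 142 TPM in COPD and to 106 to 185 TPM in control, with 1 of 10 tested markers above 0 on the log2 scale. The endothelial markers summed to 105 to 177 TPM in COPD and to 123 to 193 TPM in control, with 1 of 6 above 0. Tendon markers summed to 44.0 to 118 TPM in COPD and to 31.4 to 65.6 TPM in control, with 6 of 7 above 0. The adipocyte list summed to 3726 to 8385 TPM in COPD and to 2675 to 6319 TPM in control. Of 6 tested markers 5 were above 0. Adipoq was the one below 0, with a median of 0.54 TPM in COPD and 1.93 TPM in control. The sum was led by Car3, which muscle also expresses. The adipocyte genes Adipoq and Plin1 reached at most 9.16 and 1.41 TPM in any library. Retn and Cfd had 6.25 and 38.7 CPM in COPD replicate 5. They reached at most 0.678 and 5.77 CPM in the other COPD libraries and 3.59 and 22.7 CPM in control. Red cell markers summed to 357 to 4070 TPM in COPD and to 141 to 3024 TPM in control, with medians of 1260 TPM in COPD and 1400.0 TPM in control. Of these markers 5 of 5 tested had a log2 fold change above 0, and the highest sum was that of COPD replicate 5. None of these list members was called by edgeR, and their part in the values of the glycogen genes was not tested.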

How the data were processed

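Polyadenylated RNA of 10 gastrocnemius samples was sequenced, per the labels' protocols; groups and replicate numbers come from the sample titles. The authors deposited expected counts per gene, estimates of which 30.7% were not whole, and TPM values for the same 18025 genes. Of tools, RSEM 1.2.12, HISAT2 2.0.4, DESeq2 1.4.5 and Bowtie2 2.2.5 are listed, with the build mm9, per the submitters' processing notes, which assign no roles; whether counting used strand is not given in the sources at hand. Exons of Gys1, Phkg1 and Ugp2 overlap opposite-strand genes (Ruvbl2, Sumf2 and Gm12043) in GENCODE M21, so that their counts are uncertain to that extent.

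Expected counts were rounded, filtered by edgeR's filterByExpr and scaled by TMM; edgeR 4.0.16 (R 4.3.3) fitted COPD against control over all 10 libraries, with Benjamini-Hochberg adjustment. The standard error is the log2 fold change divided by the square root of F. The procedure was tested on simulated data. Alternatives used DESeq2 1.42.0, limma 3.58.1 (voom, or log2 TPM with a pseudocount of 1 or 0.1), other scaling, no filter, a replicate block, a Y-linked term and leaving out each library. Libraries with Y-linked counts are those where Ddx3y, Eif2s3y and Kdm5d together reached 1 CPM.

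The members, gene lists and tests were chosen with earlier results of these data known. The naming rule took all 9 members with every library's value, listed paralogs, listed genes with an unadjusted p under 0.05, and the 3 genes with the highest r to Pygm and to Gys1. Ppp1r3f, Prkag2, Prkaa2, Ppp1r1a, Ppp1r2, Phka1, Pgm1 and Phkg2 met that p, and the Pgm genes, Phka1 and Phkb were taken as values. A few genes that the rule took are not reported here; they stay in all tests and counts. Promoter windows are RefSeq's, from GRCm38.p6, and all 9 members had one; they were matched by symbol. Motifs were picked from textbook knowledge after the values were seen. Figures were drawn with matplotlib 3.10.9.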

Additional observations from a re-analysis of the deposited data

Results flagged for a closer look

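Among the 18 sets of 5 libraries (9 genes in each group), 1 held a library far from the others by Dixon's test: Gys1 was at 708 CPM in COPD replicate 4, against 515 to 538 CPM in the remaining COPD libraries. Its Dixon ratio was 0.881 against a cutoff of 0.71, and chance passes that cutoff in about 1 of 20 groups. Without COPD replicate 4 the log2 fold change of Gys1 was -0.078.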

How the results depend on the processing

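Of the 9 genes, 8 kept the direction of their log2 fold change under all 22 alternatives, Gys1 being the exception. Gys1 was at -0.012 with upper-quartile scaling, -0.14 with library size alone, -0.19 by limma on log2(TPM + 1), on log2(TPM + 0.1) and on log2(TPM + 1) without a filter, -0.068 with a term for Y-linked counts, -0.059 over libraries with Y-linked counts, and between -0.078 and 0.066 when single libraries were left out. Library size alone and the filtered TPM scales also moved the median of all genes, to -0.17, -0.18 and -0.21. Over the 22 alternatives Ppp1r3c lay between 0.77 and 1.07 (adjusted p between 4.15e-05 and 0.152) and Gyg between -0.78 and -0.50 (adjusted p between 0.00216 and 0.206).

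Glycogen genes called higher numbered 1 (Ppp1r3c) by DESeq2, by voom with sample weights, over libraries with Y-linked counts and without COPD replicate 5, a range of 0 to 1 when single libraries were left out. Called lower was 1 (Gyg) by DESeq2 and by limma on log2(TPM + 1) and on log2(TPM + 0.1). Of the further list, 1 was higher (Prkag2) and 1 lower (Ppp1r3f) by DESeq2, by voom, over libraries with Y-linked counts and without COPD replicate 5 (0 to 1 in each direction over single libraries left out). Over all genes, 7 higher and 1 lower became 263 and 151 by DESeq2, 86 and 51 by voom, 14 and 3 without a filter, 2 and 4 with library size alone, 7 and 3 with upper-quartile scaling, 9 and 58 by limma on log2(TPM + 1), 9 and 56 on log2(TPM + 0.1), 0 and 2 without a filter there (3675 at an unadjusted p under 0.05), 165 and 51 with the Y-linked term, 336 and 152 over libraries with Y-linked counts, and 0 to 263 higher and 0 to 147 lower when single libraries were left out. The cause of these shifts was not tested.

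The labels do not say whether replicate numbers pair the samples. Same-numbered deviations correlated between -0.14 and 0.0413, which gave no sign of pairing but cannot exclude it, as other pairs were not compared. With a replicate block 6 genes were called higher and 1 lower, Ppp1r3c had an adjusted p of 0.141 and Gyg one of 0.206 (edgeR). Ppp1r3d kept its direction but ranged from -1.25 to -0.040. Ppp1r3d, Ppp1r3e and Pygl had 66 counts or fewer in every library.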
